A study of Rattus norvegicus with 48 samples.

Results

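Livers of carbohydrate-fed (CHO) rats collected 24 h after 70% partial hepatectomy (PHx) were compared with livers of CHO-fed rats at 0 h, the baseline. The comparison used 12 of the 48 animals measured, namely all CHO-fed animals at these times that were left untreated or injected with saline, chosen by their labels. Each time held 3 untreated and 3 saline-treated animals, and treatment was a covariate. The paper gives an injection before the surgery and another immediately after it. It does not say whether injected animals at 0 h had the second. All were male Sprague-Dawley rats between 8 and 14 weeks of age, kept for 6 to 8 weeks on a liquid diet in which maltose-dextran supplied the 36% of calories that EtOH-fed rats took as ethanol. Values from 12 EtOH-fed control animals (6 at 0 h and 6 at 24 h) and from 6 CHO-fed animals given AM21, an LNA-modified oligo that binds and inhibits miR-21 (3 at 0 h and 3 at 24 h), are set beside them; these rats were of the same sex and strain and had the same surgery.

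After PHx the hepatocytes that remain leave quiescence and enter the cell cycle, and in rats DNA synthesis peaks at about a day. miRNAs are short RNAs that repress messenger RNAs paired with their seed, the bases near the 5′ end that set target choice. miR-21 and the miRNAs of the miR-17/92 cluster are known for promoting proliferation, miR-34a is a p53 target that restrains it, and miR-122 is the predominant miRNA of hepatocytes.

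In the NanoString nCounter assay, miRNA molecules are counted by color-coded probes without amplification, and 143 miRNAs were available as log2 CPM, the log2 of counts scaled by library size. Total counts were 58168 to 130953 at 0 h, with a median of 117108, and 92286 to 180817 at 24 h, with a median of 161436. The mean rose from 109189 ± 27921 (SD, n = 6) to 151891 ± 31012 (SD, n = 6; two-sided exact permutation p = 0.0346), although the ranges overlapped. miR-122 alone took 42.1% to 60.7% of the counts at 0 h (median 46.8%) and 56.9% to 61.9% at 24 h (median 59.0%). Its mean share was 50.1% ± 8.14 (SD, n = 6) and 59.3% ± 2.33 (SD, n = 6), with a two-sided exact permutation p of 0.0433. With times permuted only among animals of the same replicate number, this exact permutation p was 0.0556. Leaving out 1 animal in turn raised the exact permutation p for the total to 0.0563 to 0.0693, except for untreated replicate 3 and saline replicates 2 and 3 at 0 h and untreated replicate 2 at 24 h. It raised that for the share to 0.0563 to 0.0866, except for untreated replicate 2 and saline replicate 3 at 0 h, and the share at 24 h was 0.897 percentage points below that of these 2 animals alone.

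The 6 libraries at 0 h were of 2 kinds. Replicate 2 of the untreated animals had 58168 counts and a miR-122 share of 59.8%, and replicate 3 of the saline-treated animals had 130953 counts and a share of 60.7%; they are called the high-share pair here. The other 4 had shares of 42.1% to 48.8% and TMM factors of 1.17 to 1.39. Across miRNAs, the mean Pearson correlation with the other 0 h libraries was 0.951 and 0.965 for the pair, against 0.972 to 0.973 for the rest. Among all 48 libraries, however, these 4 had the lowest shares and the highest TMM factors, the remaining 44 having 51.3% to 68.8% and 0.797 to 1.16, and EtOH-fed controls at 0 h had shares of 54.2% to 61.9%. Which kind is the usual baseline was not settled. Results are given with all 6, and values without the pair, or without the other 4 (which leaves 2 animals at 0 h), follow where stated; both alternatives were chosen after seeing the data. The part of depth and of the miR-122 share in the changes below was not tested.

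**Figure D1:**
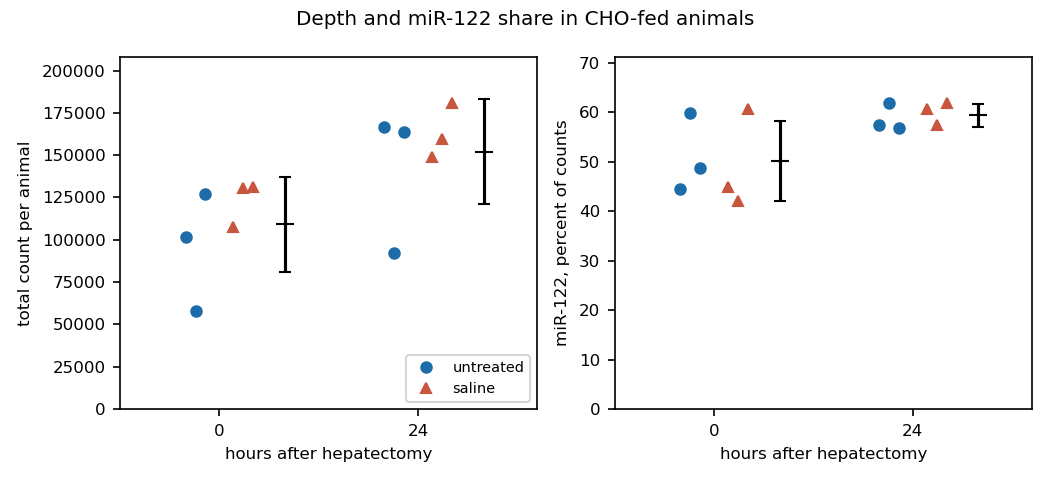
Total count per animal (left) and miR-122 as a percent of the counts (right) in CHO-fed animals at 0 and 24 h. Circles are untreated and triangles saline-treated animals, and bars are the mean ± SD of 6 animals. At 0 h an untreated and a saline-treated animal lay at 59.8% and 60.7%, within the 24 h range of 56.9% to 61.9%.

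At 24 h, miR-21, miR-674-3p, miR-17-5p and miR-132 were higher, and miR-181a, miR-99a and miR-27b were lower. With limma, 25 of 143 miRNAs (17.5%) had a Benjamini-Hochberg adjusted p under 0.05 and were called, 12 higher (8.39%) and 13 lower (9.09%), and 49 had an unadjusted p under 0.05. Most changes were small: miR-21 alone passed 2-fold among the called miRNAs, and 12 of the 25 changed by under 1.5-fold. The 0 h and 24 h animals did not overlap for 10 of 143 miRNAs (6.99%), of which 9 were called. The 7 miRNAs named first were also called without any 1 of the 12 animals.

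The split between higher and lower depended on scaling. The authors' TMM factors were 0.936 to 1.39 at 0 h and 0.908 to 1.03 at 24 h. With counts scaled to the total alone, the median change of all miRNAs moved from 0.03 to -0.27, and 2 miRNAs were called higher (miR-21 and miR-674-3p) and 29 lower. This scaling moved the change of every miRNA, and so the median of every list, down by the same amount. With scaling to the 100 highest probes, 5 were called higher and 15 lower. No called miRNA changed sign in any of the 15 alternatives or 12 omissions in which it was tested. Several alternatives altered only the test and left each change as it was. The alternative scalings moved all changes by the same amount, which was less than the smallest called change of 0.44. Neither kind could have reversed a sign, so only the omissions and the remaining alternatives bear on this. The number called was 7, 14 and 11 without 24 h untreated replicate 1, 2 and 3, and 11, 10 and 12 without 24 h saline replicate 1, 2 and 3. It was 12 without 0 h untreated replicate 1, 12 and 16 without 0 h saline replicate 1 and 2, and 41 without the high-share pair. Without the other 4 libraries at 0 h it was 18, of which 10 were among the 25: miR-21, miR-674-3p, miR-17-5p, miR-19b, the probe of miR-20a and miR-20b-5p, miR-425, miR-181a, miR-3593-3p, miR-219-2-3p and miR-743b. miR-132, miR-99a and miR-27b were then at 0.67, -0.45 and -0.38 and not called (limma, adjusted p = 0.0805, 0.123 and 0.159).

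miR-21 was the miRNA with the smallest adjusted p. Its log2 CPM was 12.97 to 14.66 at 0 h, with a median of 13.78, and 14.72 to 15.58 at 24 h, with a median of 15.11. All 6 animals at 24 h lay above every 0 h animal. The log2 fold change was 1.24 ± 0.22 (SE; limma, adjusted p = 0.00409), 1.05 in untreated and 1.43 in saline-treated animals. It was 1.08 without the high-share pair and 1.58 without the other 4 libraries at 0 h (limma, adjusted p = 0.00371 and 0.000627), and with scaling to the total it exceeded the median change of all miRNAs by 1.22.

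miR-674-3p had 7.44 to 8.54 at 0 h (median 7.95) and 8.55 to 9.02 at 24 h (median 8.93) in log2 CPM, so the groups met but did not overlap. Its log2 fold change was 0.87 ± 0.17 (SE; limma, adjusted p = 0.00756). miR-132, a miRNA transcribed in response to CREB, had 7.17 to 7.66 at 0 h (median 7.54) and 7.91 to 8.82 at 24 h (median 8.14). The groups did not overlap, and the log2 fold change was 0.74 ± 0.17 (SE; limma, adjusted p = 0.00918). The lowest counts behind these values were 17 for miR-674-3p and 11 for miR-132, both at 0 h, where counting error limits precision. In 0 h untreated replicate 3 no miRNA had fewer counts than the 21 of miR-132. miR-132 did not reach 50 counts in 3 animals or more, and its distance from background was not tested.

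The miR-17/92 cluster is a polycistron known to be driven by Myc. Of 7 measured probes in this cluster and that of miR-106b, 3 were called higher (miR-17-5p, miR-19b and the probe shared by miR-20a and miR-20b-5p) and 0 lower, against 8.39% called higher over all miRNAs. The median log2 fold change of the 7 was 0.50, 0.33 without the high-share pair and 0.89 without the other 4, against 0.03, 0.04 and 0.03 over all 143 miRNAs. miR-17-5p had 10.34 to 11.14 log2 CPM at 0 h (median 10.90) and 11.42 to 11.79 at 24 h (median 11.53). No animal at 24 h fell within the 0 h range, and the log2 fold change was 0.71 ± 0.15 (SE; limma, adjusted p = 0.00918). The probe of miR-20a and miR-20b-5p had 11.61 to 12.54 at 0 h (median 12.36) and 12.57 to 12.83 at 24 h (median 12.77), without overlap, and changed by 0.50 ± 0.16 (SE; limma, adjusted p = 0.0497). miR-19b had 8.95 to 10.66 at 0 h (median 10.17) and 10.41 to 10.88 at 24 h (median 10.78), with 4 animals at 24 h above all 0 h animals, and changed by 0.81 ± 0.25 (SE; limma, adjusted p = 0.0407). Without the high-share pair, these last 2 changes were 0.30 and 0.39 (limma, adjusted p = 0.0735 and 0.0606), without the other 4 they were 0.89 and 1.64, and they were called in 1 and 4 of the 12 omissions. Among the members not called, miR-19a changed by 1.09 (limma, adjusted p = 0.0511) and by 0.39 without that pair and 2.49 without the other 4, miR-93 by 0.41, miR-106b by 0.23 and miR-25 by -0.01.

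The mature sequences, from RefSeq on build GRCr8, are shown because these probes share seeds, printed in capitals (bases 2 to 8). miR-17-5p, miR-20a and miR-20b-5p have one seed and miR-19a and miR-19b another. On the plus strand of chromosome 15, miR-17-5p and miR-19b span chr15:98587861-98588508, with miR-19a and miR-20a between them, and a second copy of miR-17-5p and miR-19b lies with miR-20b-5p on the minus strand at chrX:137343070-137343637. The mature miR-19a and miR-19b differ at 1 of 23 positions and miR-17-5p and miR-20a at 2 of 23, and cross-reaction between such probes was not tested.
miR-17-5p: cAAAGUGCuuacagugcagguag
miR-20a: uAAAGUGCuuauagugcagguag
miR-20b-5p: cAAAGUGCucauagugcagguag
miR-19b: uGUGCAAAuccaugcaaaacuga
miR-19a: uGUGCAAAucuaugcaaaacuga

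miR-16 and miR-34a, both known to slow the cell cycle, were also higher. miR-16 had 13.64 to 14.34 log2 CPM at 0 h (median 13.84) and 14.08 to 14.95 at 24 h (median 14.54), and 5 of 6 animals at 24 h lay above the 0 h range. Its change was 0.62 ± 0.17 (SE; limma, adjusted p = 0.0261), and it was the 1 called of 5 measured members of the miR-15/16 family, whose median was 0.29 (8.39% called higher and a median of 0.03 over all miRNAs). With scaling to the total that median was -0.00086, just below 0. miR-15b, encoded 125 bases from miR-16, changed by -0.02. miR-34a had 7.53 to 8.03 at 0 h (median 7.62) and 7.81 to 8.81 at 24 h (median 8.31), again with 5 of 6 above the 0 h range, and changed by 0.58 ± 0.17 (SE; limma, adjusted p = 0.0375). Its counts were only 15 to 38 at 0 h and 37 to 58 at 24 h, which limits precision. Among the alternatives that tested miR-34a, it was called in 7 and not called in 7. miR-16 was called in 6 and miR-34a in 5 of the 12 omissions, with adjusted p of up to 0.062 and 0.0774 in the others.

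miR-122 had 18.21 to 19.31 log2 CPM at 0 h (median 18.52) and 19.08 to 19.35 at 24 h (median 19.22), and the groups overlapped. Its change of 0.55 ± 0.19 (SE; limma, adjusted p = 0.0497) was called in 2 of the 12 omissions and depended on the baseline libraries: it was 0.82 without the high-share pair (limma, adjusted p = 0.00169) and 0.03 without the other 4 (limma, adjusted p = 0.924). miR-667 (0.69), miR-207 (0.53) and miR-425 (0.46) complete the called higher miRNAs, and each was called in 2 of the 12 omissions. Without the other 4 libraries at 0 h, miR-667 changed by 0.09.

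**Figure D2:**
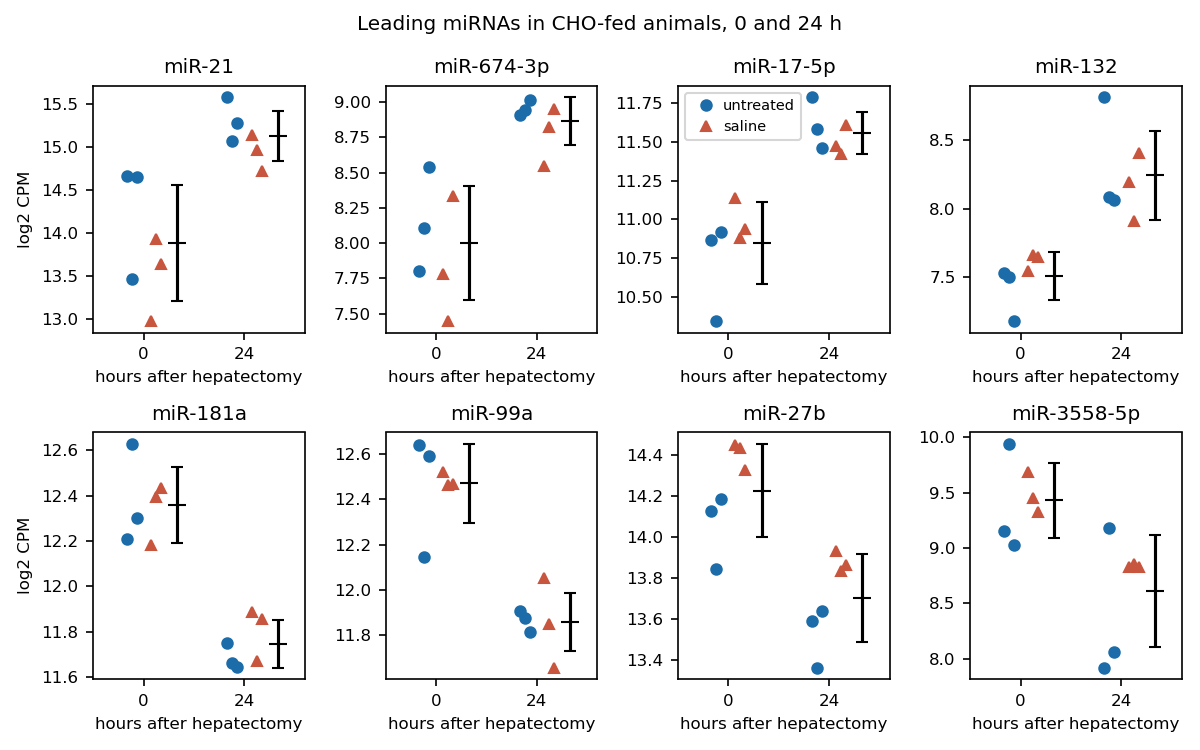
Log2 CPM of the 4 higher (top) and 4 lower (bottom) miRNAs with the smallest adjusted p in CHO-fed animals at 0 and 24 h. Circles are untreated and triangles saline-treated animals, bars are the mean ± SD of 6 animals, and each axis has its own range. The times do not overlap for miR-21, miR-674-3p, miR-17-5p, miR-132, miR-181a and miR-99a and overlap for miR-27b and miR-3558-5p.

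Among the lower miRNAs, miR-181a, known for its role in lymphocyte development, had 12.18 to 12.63 log2 CPM at 0 h (median 12.35) and 11.65 to 11.89 at 24 h (median 11.71). The groups did not overlap, and the log2 fold change was -0.61 ± 0.14 (SE; limma, adjusted p = 0.00918). miR-181c, with the same seed, changed by -0.63 and was not called (limma, adjusted p = 0.0511). miR-99a, known to repress Mtor, had 12.14 to 12.64 at 0 h (median 12.49) and 11.65 to 12.05 at 24 h (median 11.86), without overlap, and changed by -0.61 ± 0.14 (SE; limma, adjusted p = 0.00918). Of the 5 measured members of the miR-99/100 and miR-125 families, 2 were called lower and 0 higher, against 9.09% called lower over all miRNAs, with a median of -0.33 against 0.03 over all (-0.18 and 0.04 without the high-share pair). The other called member, miR-100, changed by -0.54 ± 0.18 (SE; limma, adjusted p = 0.0497) with overlapping groups, and by -0.44 without the high-share pair (limma, adjusted p = 0.083). It was called in 2 of the 12 omissions and 8 of the 15 alternatives.

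The miR-23/27/24 clusters, named in work on angiogenesis and lipid metabolism, had 3 of 5 members called lower and 0 higher, with a median of -0.44. Over all 143 miRNAs 9.09% were called lower, and the median was 0.03. miR-27b had 13.84 to 14.45 log2 CPM at 0 h (median 14.26) and 13.36 to 13.93 at 24 h (median 13.74), and 4 of 6 animals at 24 h lay below the 0 h range. It changed by -0.52 ± 0.13 (SE; limma, adjusted p = 0.019). miR-27a had 11.46 to 11.83 at 0 h (median 11.64) and 11.11 to 11.32 at 24 h (median 11.17), without overlap, and changed by -0.44 ± 0.13 (SE; limma, adjusted p = 0.0375). miR-23b changed by -0.47 ± 0.14 (SE; limma, adjusted p = 0.0407), with 5 of 6 animals at 24 h below the 0 h range. Of the members not called, miR-24, which is encoded beside both miR-27b and miR-27a, changed by 0.15 and miR-23a by -0.11. miR-27a and miR-23b were each called in 3 of the 12 omissions.

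The sequences of the remaining miRNAs on which these results turn follow, with the seed in capitals. miR-27b and miR-27a share a seed and differ at 1 of 21 positions, and cross-reaction between their probes was not tested, while miR-21, miR-132, miR-181a, miR-16 and miR-34a each have another. miR-27b lies at chr17:1819163-1819183 and miR-27a at chr19:40859614-40859634, both on the minus strand, and miR-21 at chr10:71902653-71902674 on the minus strand. Of 144 miRNA names on the probes, 108 were matched in RefSeq, 36 as written and 72 by taking a name without an arm as the arm usually more abundant. Among the called miRNAs, miR-674-3p, miR-99a, miR-150, miR-219-2-3p, miR-667 and miR-743b were not matched.
miR-27b: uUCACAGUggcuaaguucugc
miR-27a: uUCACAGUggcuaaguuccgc
miR-21: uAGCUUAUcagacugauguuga
miR-132: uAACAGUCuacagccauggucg
miR-181a: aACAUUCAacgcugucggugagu
miR-16: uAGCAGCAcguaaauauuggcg
miR-34a: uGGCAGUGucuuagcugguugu

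The other called lower miRNAs were miR-219-2-3p (-0.88), miR-3558-5p (-0.82), miR-3593-3p (-0.79), miR-743b (-0.73), miR-10a-5p (-0.57), miR-150 (-0.52) and miR-146a (-0.44). miR-150, abundant in mature lymphocytes, had 10.21 to 10.83 log2 CPM at 0 h (median 10.33) and 9.53 to 10.20 at 24 h (median 9.97). Its groups did not overlap, and its change of -0.52 ± 0.16 (SE; limma, adjusted p = 0.0407) was called in 3 of the 12 omissions. miR-146a, a brake on inflammatory signaling through NF-κB, had 11.22 to 11.79 at 0 h (median 11.73) and 10.93 to 11.32 at 24 h (median 11.20), and 3 animals at 24 h lay below the 0 h range. It changed by -0.44 ± 0.14 (SE; limma, adjusted p = 0.0419), while miR-146b, with the same seed, changed by 0.19 and was not called. miR-146a was called in 3 of the 12 omissions and 9 of the 15 alternatives. miR-743b, miR-425 and list members that were not called are named outside the rule for named miRNAs, after their values were seen.

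Whole liver holds several cell types, and in such tissue fewer cells of a type and less RNA per cell cannot be told apart. Over all miRNAs 8.39% were called higher and 9.09% lower. Markers of hepatocytes gave 1 of 3 called higher, with summed levels of 332267 to 668768 CPM at 0 h and 580586 to 697872 CPM at 24 h, nearly all from miR-122. miR-192 and miR-194 changed by 0.02 and 0.07 and had the opposite sign with scaling to the total (-0.28 and -0.22). Without the other 4 libraries at 0 h they changed by 0.44 and 0.48 and were not called. Leukocyte markers gave 1 of 4 called lower (miR-150) and 0 higher, with a median of 0.22. Their summed levels were 2489 to 3562 CPM at 0 h and 2512 to 3091 CPM at 24 h. miR-223, miR-142-3p and miR-342-3p changed by 0.27, 0.17 and 0.29 and were not called. Over single omissions they ran from 0.11 to 0.35, 0.06 to 0.31 and 0.15 to 0.41, and the 0.11 of miR-223 came without 24 h untreated replicate 2. The median of these 4 markers was -0.08 with scaling to the total.

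Of 4 mesenchymal markers 0 were called. Their summed level was 21107 to 24946 CPM at 0 h and 14492 to 20287 CPM at 24 h, without overlap, and most of it was miR-145. miR-145, typical of smooth muscle and stellate cells, had 13.81 to 14.13 log2 CPM at 0 h (median 13.97) and 13.09 to 13.74 at 24 h (median 13.66). Although these groups did not overlap, its change of -0.39 ± 0.15 (SE) was not called (limma, adjusted p = 0.0746). It was called in 5 of the 15 alternatives and 0 of the 12 omissions, and with scaling to the total it was -0.69 (limma, adjusted p = 0.0099). miR-143, miR-199a-3p and miR-199a-5p changed by -0.01, -0.21 and 0.33. The endothelial marker miR-126 had 14.15 to 15.47 at 0 h (median 15.15) and 14.54 to 15.05 at 24 h (median 14.77). Its change was -0.29 ± 0.20 (SE; limma, adjusted p = 0.33), and it depended on the baseline libraries: it was -0.51 without the high-share pair (limma, adjusted p = 0.0136), -0.48 without 0 h untreated replicate 2 alone (limma, adjusted p = 0.0215) and 0.16 without the other 4. It was -0.58 with scaling to the total (limma, adjusted p = 0.0931) and -0.70 when the log10 of depth was a covariate (limma, adjusted p = 0.0287).

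Red blood cell markers (2 measured, 0 called) were summed at 1037 to 2555 CPM at 0 h and 407 to 2249 CPM at 24 h. These were mostly miR-144 except in 0 h untreated replicate 2. miR-451 changed by -0.61 ± 0.27 and miR-144 by -0.42 ± 0.40 (SE), neither called. Over single omissions they ran from -0.81 to -0.41 and from -0.71 to -0.10, and the smallest change of each came without 24 h saline replicate 1. Biliary epithelial markers (2 measured, 0 called, mostly miR-429) were summed at 739 to 1617 CPM and 578 to 1067 CPM, and skeletal muscle markers (2 measured, 0 called, mostly miR-1) at 647 to 1447 CPM and 754 to 1041 CPM. miR-1 changed by 0.20 ± 0.21 (SE; limma, adjusted p = 0.553), by 0.51 without the high-share pair (limma, adjusted p = 0.0104) and by -0.41 without the other 4. No measured marker had a count of 0 in any of the 12 animals, but neither had any other miRNA, the lowest count being 5. The absence of 0 counts therefore does not show that these markers were detected. Their distance from background was not tested. The part of these cell types in the changes described was not tested.

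Lists drawn from published profiles of nonparenchymal cells were taken as far as the authors marked their members as present in these data. Of 14 measured miRNAs that rise in stellate cells activated in culture, 2 were called higher (miR-21 and miR-132) and 0 lower, with a median of 0.16. Of 21 that fall in them, 4 were called lower (miR-99a, miR-181a, miR-146a and miR-150) and 3 higher (miR-16, miR-122 and miR-207), with a median of 0.02 (-0.13 without the high-share pair and 0.29 without the other 4). Of 25 enriched in sinusoidal endothelial cells, 5 were called lower and 1 higher (miR-16), with a median of -0.11, and of 5 from Kupffer cells after PHx 0 were called, with a median of 0.17. Over all 143 miRNAs 17.5% were called, and the median was 0.03. With all 66 members listed for sinusoidal endothelial cells, an alternative chosen after seeing the data, 37 were measured, 8 were called lower, among them miR-27b, miR-27a and miR-23b, and 1 higher, and the median stayed at -0.11. With all 26 that fall in activated stellate cells, 5 of 22 measured were called lower, miR-10a-5p being the one added, and 3 higher. With scaling to the total, the first 2 medians and that of the Kupffer cell list were below 0, at -0.14, -0.28 and -0.13, as was the median over all miRNAs. Without the other 4 libraries at 0 h, that of the Kupffer cell list was -0.21 and that of the endothelial list -0.32.

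Other families had 0 called members, against 17.5% called and a median of 0.03 over all 143 miRNAs (-0.27 with scaling to the total). With so few members each, 0 calls does not set them apart from that share. Scaling to the total lowered every change by the same amount, so the medians given with it below follow from that shift. They say nothing further about a family. For the let-7/miR-98 family, 0 of 8 members were called and the median was -0.08. It was 0.04 without the high-share pair, -0.21 without the other 4 and -0.38 with scaling to the total. The change was 0.44 ± 0.17 for let-7a (SE; limma, adjusted p = 0.0748) and -0.34 for miR-98. The miR-30 family had 0 of 5 called and a median of 0.25, which was -0.05 with scaling to the total, 0.01 without that pair and 0.68 without the other 4, and the miR-29 family had 0 of 3 called and a median of 0.07, which was -0.23 with that scaling, -0.02 without the pair and 0.62 without the other 4. In the families of miR-26, miR-103, miR-101, miR-148 and miR-130, 0 of 2 measured members each were called, with medians of -0.28, -0.15, 0.02, 0.19 and 0.10. With scaling to the total all 5 medians were below 0, at -0.58, -0.45, -0.28, -0.10 and -0.19, without the pair they were -0.50, -0.20, -0.36, 0.18 and -0.02, and without the other 4 they were 0.16, -0.07, 0.77, 0.22 and 0.35. The 1 measured member of miR-221 and miR-222 changed by 0.28, and by -0.02 with scaling to the total, and was not called.

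Untreated and saline-treated animals are separate rats, and their changes were compared to see whether they differed. The change in saline-treated animals may include the second injection, and its part was not tested. Across the 143 miRNAs, which are not independent of each other, the changes had a Pearson correlation of 0.716, and 104 had the same sign. With limma, 0 of 143 miRNAs (0%) had a called difference in change between saline-treated and untreated animals, and 1 had an unadjusted p under 0.05. With 3 against 3 animals, limma called 0 miRNAs in untreated animals (18 at an unadjusted p under 0.05) and 1 (miR-21, higher) in saline-treated animals.

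**Figure D3:**
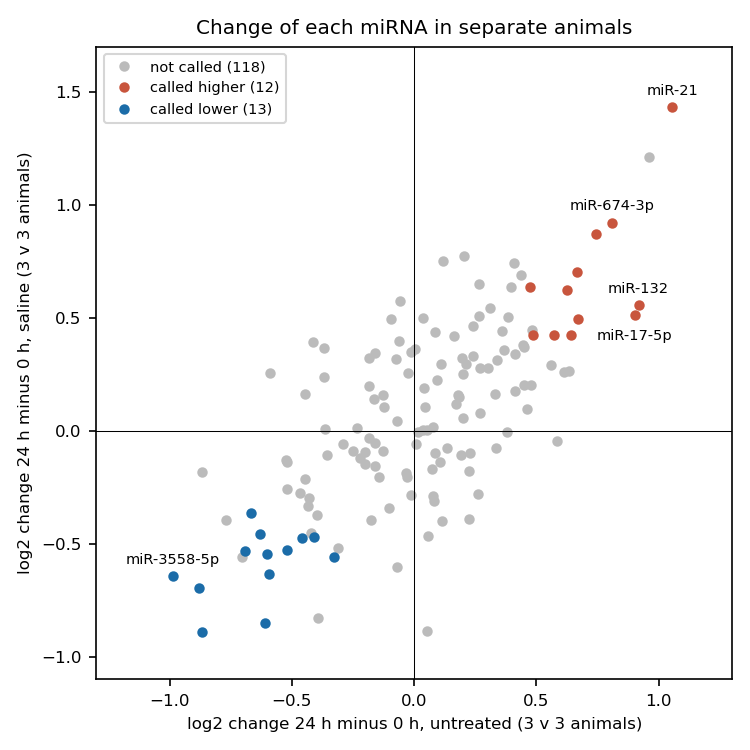
Log2 change from 0 to 24 h of each of 143 miRNAs in untreated (horizontal axis) and saline-treated (vertical axis) CHO-fed animals, 3 at each time. Colours mark the 12 called higher and 13 called lower with both treatments pooled, and 104 of the 143 have the same sign on both axes.

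In the 12 EtOH-fed control animals, which share no animal with the CHO-fed ones, miR-21 changed by 2.15 ± 0.67 (SE) over the same interval. The difference from the CHO-fed animals was 0.91 ± 0.74 (SE; limma, adjusted p = 0.708). miR-17-5p changed by 0.56, miR-132 by 0.59, miR-181a by -0.47, miR-99a by -0.65 and miR-27b by -0.48 in EtOH-fed animals, and miR-674-3p by 0.22. With limma, 0 of 143 miRNAs (0%) were called for a difference between diets, and 14 had an unadjusted p under 0.05. Without CHO 0 h saline replicate 3, 1 miRNA was called (let-7a), and without the high-share pair 3 were (let-7a, miR-122 and miR-1224), named after their values were seen. The CHO baseline is then the 4 libraries with miR-122 shares below all others, and without those 4 instead, 0 were called.

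In CHO-fed animals given AM21, miR-21 had 31, 17 and 30 counts at 0 h (log2 CPM 7.63, 7.34 and 7.33) and 22, 27 and 15 at 24 h (log2 CPM 7.49, 7.32 and 6.59), against 717 to 3825 and 3113 to 8010 in the CHO-fed controls. The 15 counts of 24 h replicate 3 were the fewest of any miRNA in that library. Counts this low limit the precision of the miR-21 change, and what they reflect was not tested. In these animals miR-21 changed by -0.30 ± 0.26 (SE) from 0 to 24 h, an interval that may include the second injection. Most of this change came from 24 h replicate 3, without which it was -0.03. The difference from the CHO-fed controls was -1.55 ± 0.39 (SE) and was not called (limma, adjusted p = 0.109); without that replicate it was -1.28 (limma, adjusted p = 0.678), and without the 4 low-share CHO libraries at 0 h it was -1.88 and called (limma, adjusted p = 0.0107). Most of the -1.55 was the change of 1.24 in the controls, and whether so low a probe could show a rise was not tested. With limma, 0 of 143 miRNAs (0%) were called for a difference in change, and 5 had an unadjusted p under 0.05. miR-17-5p, miR-132, miR-181a, miR-99a and miR-27b changed by 0.56, 0.86, -0.35, -0.94 and -0.56 in the AM21-treated animals.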

How the data were processed

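The authors counted miRNAs with the NanoString nCounter assay and deposited log2 CPM for 143 miRNAs, scaled by TMM in edgeR 3.34.1 and transformed by voom in limma 3.48.3. Whole counts were recovered from these values with the voom offset of 0.5, each within 0.001 of a whole number, and gave the depth per animal. The 12 CHO-fed control animals (58168 to 180817 counts) entered a linear model of the deposited values with time and treatment as terms (limma 3.58.1 under R 4.3.3, functions lmFit and eBayes). Benjamini-Hochberg adjustment ran over all miRNAs, and an adjusted p under 0.05 was called. Differences in change were interaction terms. Total count and miR-122 share were compared by two-sided exact permutation tests. The steps were tested on simulated data.

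Named miRNAs were the 10 higher and 10 lower called with the smallest adjusted p, miR-21, miR-122, miR-34a, measured cell type markers and called members of the lists. Members and lists were chosen with earlier results of these data known. Alternatives were RLE factors, scaling to the total or to the 100 highest probes, a minimum of 50 counts in 3 animals or more, voom weights, an eBayes trend, log10 total count as a covariate, the replicate number as a block, all 48 animals, 4 group means, each treatment alone and omission of each animal. Python 3.11.15 and matplotlib 3.10.9 made the figures.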

Additional observations from a re-analysis of the deposited data

Results flagged for a closer look

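Within the 6 animals of a time, 7 of 84 sets of values had an animal far from the others, where chance gives about 1 in 20. At 0 h, untreated replicate 2, the library with the lowest total, was lowest for miR-17-5p (log2 CPM 10.34, others 10.87 to 11.14), miR-99a (12.14, others 12.46 to 12.64) and miR-126 (14.15, others 15.01 to 15.47). Untreated replicate 3 was lowest for miR-132 (7.17, others 7.50 to 7.66). At 24 h, untreated replicate 2 had 92286 counts in total, against 148722 to 180817 in the others, and stood apart for miR-223 (9.32, others 8.11 to 8.46) and miR-145 (13.09, others 13.57 to 13.74).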

How the results depend on the processing

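Against 25 called miRNAs, limma called 41 with all 48 animals in one fit, 12 with 4 group means, 0 in untreated animals alone (18 at an unadjusted p under 0.05) and 1 in saline-treated animals alone, where fewer animals entered. Among alternatives chosen after seeing the data, it called 41 without the pair of 0 h libraries with high miR-122 shares, 18 without the other 4 (10 of the 25 among them) and 16 with CPM computed without miR-122. Single omissions gave 7 (without 24 h untreated replicate 1) to 29 (without 0 h saline replicate 3). The other 8 alternatives gave 18 to 31, and 12 of the 25 were among the 18 called when log10 total count was a covariate. Animals with the same replicate number did not all deviate together (correlations of 0.12, 0.30 and 0.28 in untreated and 0.03, 0.12 and 0.13 in saline-treated animals), and the number as a block gave 22. The difference in total count, 42702, was 32497 to 54623 over omissions (exact permutation p = 0.00433 to 0.0693) and 35387 and 57331 without the pair and without the other 4 (exact permutation p = 0.0762 and 0.143). The difference in miR-122 share, 9.23 percentage points, was 7.62 to 11.3 over omissions (exact permutation p = 0.0173 to 0.0866), 14.3 without the pair and -0.897 without the other 4 (exact permutation p = 0.00952 and 0.643), and its exact permutation p was 0.0556 when times were permuted within the replicate block (difference 9.23). For the difference between diets, limma called 0 to 1 miRNA over omissions, the 1 without CHO 0 h saline replicate 3, 3 without the pair, and otherwise 0 (14 at an unadjusted p under 0.05 when no animal was left out). With AM21, 2 miRNAs were called for a difference in change without the other 4, against 0. Of the named miRNAs, 13 that were not called changed sign in some setting. With scaling to the total, miR-192, miR-194, miR-142-3p, miR-223, miR-342-3p and miR-1 were at -0.28, -0.22, -0.13, -0.026, -0.0034 and -0.093. With scaling to the 100 highest probes, miR-192 and miR-194 were at -0.060 and -0.0041. When log10 total count was a covariate, miR-192, miR-194 and miR-206 were at -0.31, -0.21 and 0.23. Without the pair, miR-192, miR-194 and miR-142-3p were at -0.19, -0.13 and -0.059. Without the other 4, miR-144, miR-126, miR-143, miR-200b, miR-429 and miR-1 were at 0.29, 0.16, 0.31, 0.16, 0.089 and -0.41. In untreated animals miR-144, miR-142-3p, miR-199a-3p and miR-200b were at 0.051, -0.061, 0.058 and 0.22, and in saline-treated animals miR-223 and miR-143 at -0.043 and 0.044. Over omissions miR-192 ran from -0.12 to 0.098, miR-194 from -0.034 to 0.16, miR-143 from -0.13 to 0.065 and miR-200b from -0.23 to 0.048. Scaling to the total, or to the 100 highest probes, moved every change by the same amount within each scaling, so small positive changes fell below 0. The other settings used fewer animals or a covariate, and the cause of those sign changes was not tested. The lowest count in the 12 animals was 5, and 6 of the 25 called miRNAs had median counts below 50, which limits the precision of their values.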
